A study of Mus musculus with 6 samples.

Results

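TGF-beta signalling was followed through 8 genes: the ligands Tgfb1, Tgfb2 and Tgfb3, the receptors Tgfbr1 and Tgfbr2, the signal transducer Smad3, the feedback inhibitor Smad7 and the target Tgfbi. They were chosen by name among 55298 gene identifiers of the deposited table, with earlier results of these data known. All 8 were among the 18161 genes tested. Tgfbi, a secreted matrix protein, rose 3.67-fold in brain cells captured at the peak of experimental autoimmune encephalomyelitis (EAE). Its call was lost in 3 of 6 fits with a sample left out. None of the 3 ligands, the 2 receptors or the 2 Smads passed the test, and their differences lay between -0.45 and 0.35 on the log2 scale. Of 86 other tested genes of the pathway 2 rose, Inhba and Tgif1, and 2 fell, Bmpr1b and Grem1. Among all tested genes 1.72% rose and 0.666% fell. The calls of Inhba, Tgif1, Bmpr1b and Grem1 were each lost in at least 3 of 6 fits with a sample left out.

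The cells were taken from mouse brain without culture, using magnetic beads and antibodies to O4, a surface sulfatide of late precursors and oligodendrocytes, and the labels call them oligodendrocytes. Both groups had the strain labelled c56Bl/6j. EAE mice were immunised with MOG 35-55, a peptide of myelin oligodendrocyte glycoprotein, and control mice received ovalbumin (OVA). The samples were taken at the peak of disease, and no age or sex is in the labels. RNA of 6 EAE mice formed 3 pools of 2 mice, whereas RNA of 4 OVA mice gave 3 samples, OVA replicate 2 holding 2 mice and OVA replicates 1 and 3 holding 1 mouse each.

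TGF-beta is secreted bound to a latency peptide and is released by integrins and other activators at the cell surface. The freed ligand joins the type II receptor Tgfbr2 to the type I receptor Tgfbr1, which phosphorylates Smad2 and Smad3, and these enter the nucleus with Smad4. Smad7 is induced by the signal and blocks the receptor. In the brain the pathway is known for keeping microglia in their resting state, for its part in the growth of vessels and for restraining inflammation.

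Each value is a regularised logarithm (rlog) of a scaled read count, on a log2 scale on which a difference of 1 is a 2-fold change, and the rlog shrinks differences of weakly expressed genes. The table holds no counts, so depth is unknown. The 10 oligodendrocyte markers were present in every sample, with a summed level (the log2 of the sum of 2 to the power of each rlog value) of 20.21 to 20.36 in EAE and 19.84 to 20.27 in OVA. The preparations were not pure: the summed level of 9 myeloid markers was 16.11 to 16.32 in EAE and 14.97 to 15.49 in OVA, with 5 of the 9 rising and none of the defining markers at 0. That of 8 markers of infiltrating monocytes and macrophages was 13.51 to 14.28 in EAE and 11.22 to 13.08 in OVA, with 4 of the 8 rising. These were Arg1, Cd14, Gpnmb and F10. Ccr2, Ly6c2, Chil3 and Plac8 did not pass and their groups overlapped, and Ly6c2 and Chil3 were highest in OVA replicate 3. The summed level of 7 T cell markers was 8.69 to 8.91 in EAE and 7.97 to 8.33 in OVA, with 4 of the 7 rising and none at 0. OVA replicate 3 stood apart. Its summed level of 5 neutrophil markers was 15.51, against 11.27 to 12.29 in the other 5 samples, and all 8 endothelial markers were highest there among the OVA samples. So were all 8 markers of monocytes and macrophages, all 3 of B cells and all 7 of pericytes and smooth muscle, but none of the 10 oligodendrocyte markers. The summed monocyte and macrophage level was 13.08 in OVA replicate 3, against 11.22 and 11.38 in OVA replicates 1 and 2. Xist, which silences an X chromosome in female cells, stood at 13.51, 13.55 and 14.16 in the EAE pools and at 7.39, 7.63 and 7.62 in the OVA samples, and the Y-linked Ddx3y averaged 9.93 ± 0.42 in EAE and 11.38 ± 0.08 in OVA (SD, n = 3). Ddx3y was thus lower in the EAE pools but still expressed, and the labels do not give the sex of the mice in them. Effects of sex and of EAE therefore cannot be told apart in any difference below. As the samples are bulk RNA, more cells of a type cannot be told apart from more RNA per cell.

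The comparison asks which of these transcripts differed in O4-captured cells at the peak of disease. Of the 8 genes, 1 rose and none fell by limma, at a threshold of 0.05 on the p-value adjusted by Benjamini and Hochberg over all tested genes. Among all tested genes 2.38% passed, 1.72% higher and 0.666% lower in EAE. At an unadjusted p under 0.05, which 16.3% of all genes reached, Tgfbi was again the only one of the 8. Of the 8 differences 4 lay above 0, as did 49.3% of those of all genes, with a median of -0.035, beside -0.0024 over all tested genes. The groups did not overlap for Tgfbi and Smad3, that is for 2 of 8, where 22.8% of all tested genes had groups that did not overlap.

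**Figure D1:**
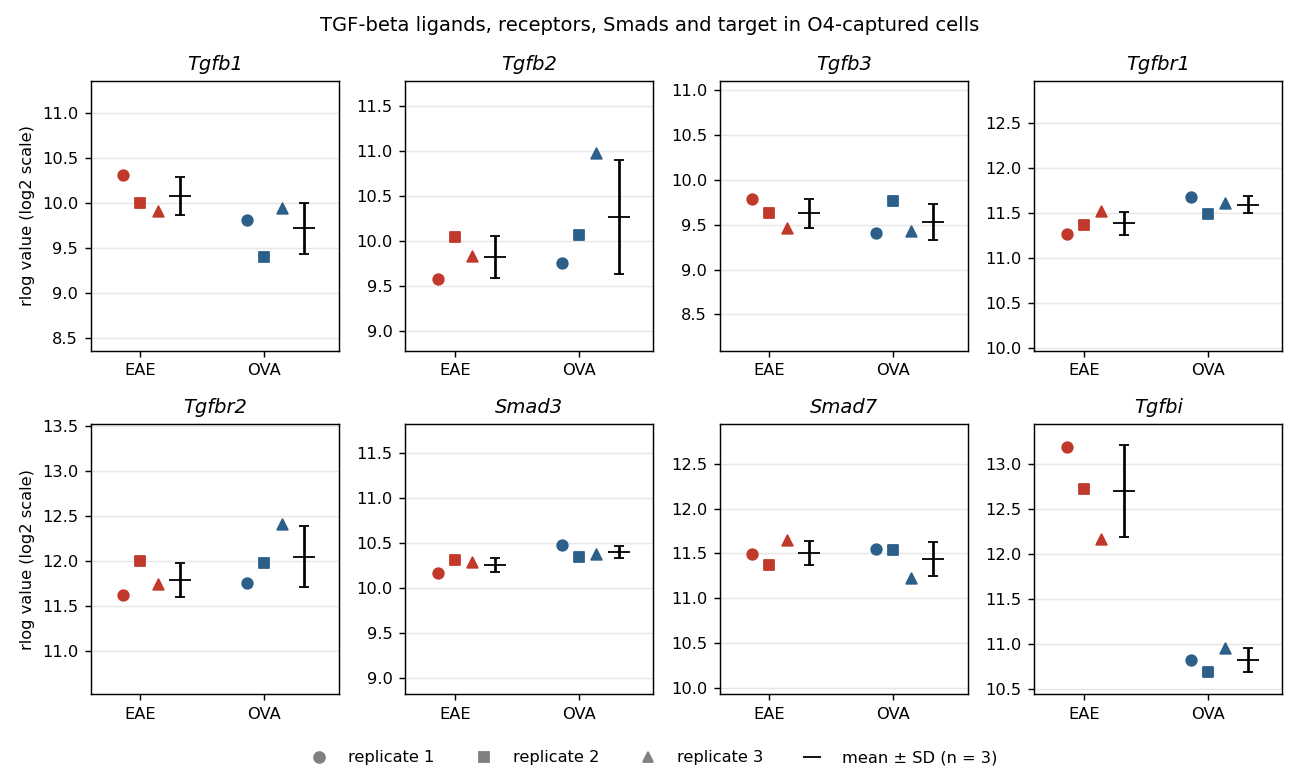
Values of the 8 genes in each sample, as rlog values on a log2 scale; every panel spans 3 units. Points are single samples, EAE in red on the left and OVA in blue on the right, with the mean and SD beside them (n = 3 each); the groups are clearly apart for Tgfbi, where EAE samples sit between 12.17 and 13.19 and OVA samples between 10.69 and 10.95.

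Among the ligands, Tgfb1 (ENSMUSG00000002603.15, GRCm38 chromosome 7, 25687002 to 25705077), the isoform made by leukocytes and microglia, had rlog values of 10.314, 10.005 and 9.909 in the EAE pools and 9.82, 9.41 and 9.95 in the OVA samples. OVA replicate 3 lay above EAE replicate 3, so the groups overlapped. The difference was 0.35 ± 0.16 (SE), with a 95% interval from -0.03 to 0.73 (limma adjusted p = 0.34). With 1 sample left out it ran from 0.19 (without OVA replicate 2) to 0.46 (without OVA replicate 3), and was 0.23 without EAE replicate 1. The part of the T cell and myeloid markers in it was not tested. Relative to the summed level of the 9 myeloid markers in the same sample, Tgfb1 stood at -6.10 ± 0.10 in EAE and at -5.48 ± 0.13 in OVA (SD, n = 3), and these ratios did not overlap. They were computed after the values were seen and were given no test.

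Tgfb2 (ENSMUSG00000039239.14, chromosome 1, 186622792 to 186705989), an isoform known from the development of heart and vessels, had its highest value in an OVA sample. Its rlog values were 9.58, 10.04 and 9.83 in EAE and 9.76, 10.07 and 10.98 in OVA. The OVA values spread widely, and OVA replicate 3 was 0.91 above the next highest sample. The difference of -0.45 ± 0.29 (SE; interval -1.13 to 0.23; limma adjusted p = 0.49) became -0.10 without OVA replicate 3 and -0.71 without OVA replicate 1. An antisense transcript, Gm29491, overlaps 295 bases of the gene, with a mean rlog value of 3.04. The summed level of 8 endothelial markers was 15.26 to 15.79 in EAE and 15.68 to 16.40 in OVA, with none of the 8 past the test, none at 0, and OVA replicate 3 highest of all samples. Measured against it within each sample, Tgfb2 stood at -5.66 ± 0.10 in EAE and -5.75 ± 0.28 in OVA (SD, n = 3), and the groups overlapped.

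Tgfb3 (ENSMUSG00000021253.7, chromosome 12, 86056745 to 86079041), the isoform needed for closure of the palate, had rlog values of 9.79, 9.63 and 9.46 in EAE and 9.41, 9.76 and 9.43 in OVA. The groups were interleaved, with a difference of 0.09 ± 0.13 (SE; interval -0.20 to 0.39; limma adjusted p = 0.76). Leaving out EAE replicate 1 made it 0.01, OVA replicate 1 made it 0.03 and OVA replicate 3 made it 0.04. It was 0.18 when EAE replicate 3 was omitted and 0.21 when OVA replicate 2 was. The gene overlaps 5149 bases of Ttll5 on the opposite strand, which had a mean rlog value of 11.47. The library kit keeps strand, but whether the counting used strand is not stated in the labels, so reads of that stretch may belong to either gene.

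The balance of the ligands can be read within a sample, where no scaling between samples enters. Tgfb1 minus Tgfb2, as a difference of rlog values, was 0.74, -0.04 and 0.08 in EAE and 0.06, -0.67 and -1.03 in OVA. The EAE pools lay higher on average, by 0.81, but OVA replicate 1 fell between 2 of them. Per kilobase of exon (the rlog value minus the log2 of the summed exon length), the 3 ligands had mean levels of 7.74 for Tgfb1, 7.29 for Tgfb2 and 7.87 for Tgfb3 in EAE. In OVA they were 7.39 for Tgfb1, 7.74 for Tgfb2 and 7.77 for Tgfb3. In OVA the gap between Tgfb2 and Tgfb3 was smaller than the SD of their difference within a sample, which was 0.71.

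Of the receptors, Tgfbr1 (ENSMUSG00000007613.15, chromosome 4, 47353222 to 47414931), the signalling type I kinase, had rlog values of 11.27, 11.38 and 11.52 in EAE and 11.68, 11.49 and 11.62 in OVA. All EAE pools were below OVA replicates 1 and 3, and EAE replicate 3 was just above OVA replicate 2. The difference was -0.21 ± 0.09 (SE; interval -0.42 to 0.0038; limma adjusted p = 0.32). Tgfbr2 (ENSMUSG00000032440.13, chromosome 9, 116084293 to 116175360), the type II kinase that binds the ligand, had rlog values of 11.629, 12.002 and 11.743 in EAE and 11.75, 11.98 and 12.42 in OVA. EAE replicate 2 exceeded 2 OVA samples, and OVA replicate 3 was again the highest. Its difference of -0.26 ± 0.17 (SE; interval -0.67 to 0.15; limma adjusted p = 0.51) became -0.07 without that sample and -0.41 without OVA replicate 1. Against the summed endothelial level of the same sample, Tgfbr2 stood at -3.69 ± 0.09 in EAE and -3.97 ± 0.04 in OVA (SD, n = 3), a ratio whose groups did not overlap and which was formed after the values were seen. Tgfbr1 minus Tgfbr2 was -0.40 ± 0.21 in EAE and -0.46 ± 0.36 in OVA, so the balance of the receptor chains differed by less than its spread.

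Smad3 (ENSMUSG00000032402.12, chromosome 9, 63646767 to 63757994), which carries the signal to the nucleus, had groups that just failed to overlap. Its rlog values were 10.17, 10.31 and 10.29 in EAE and 10.47, 10.34 and 10.38 in OVA. The gap between EAE replicate 2 and OVA replicate 2 was 0.03, and the difference of -0.14 ± 0.08 (SE; interval -0.32 to 0.04) did not pass (limma adjusted p = 0.42). Smad7 (ENSMUSG00000025880.11, chromosome 18, 75367529 to 75395935), the inhibitor that the pathway induces against itself, had rlog values of 11.49, 11.38 and 11.65 in EAE and 11.55, 11.54 and 11.23 in OVA. The samples were mixed, and the difference was 0.07 ± 0.11 (SE; interval -0.20 to 0.33; limma adjusted p = 0.81). Without OVA replicate 3 it was -0.04. Smad7 minus Smad3 within a sample was 1.25 ± 0.16 in EAE and 1.04 ± 0.18 in OVA (SD, n = 3), and the groups overlapped.

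**Figure D2:**
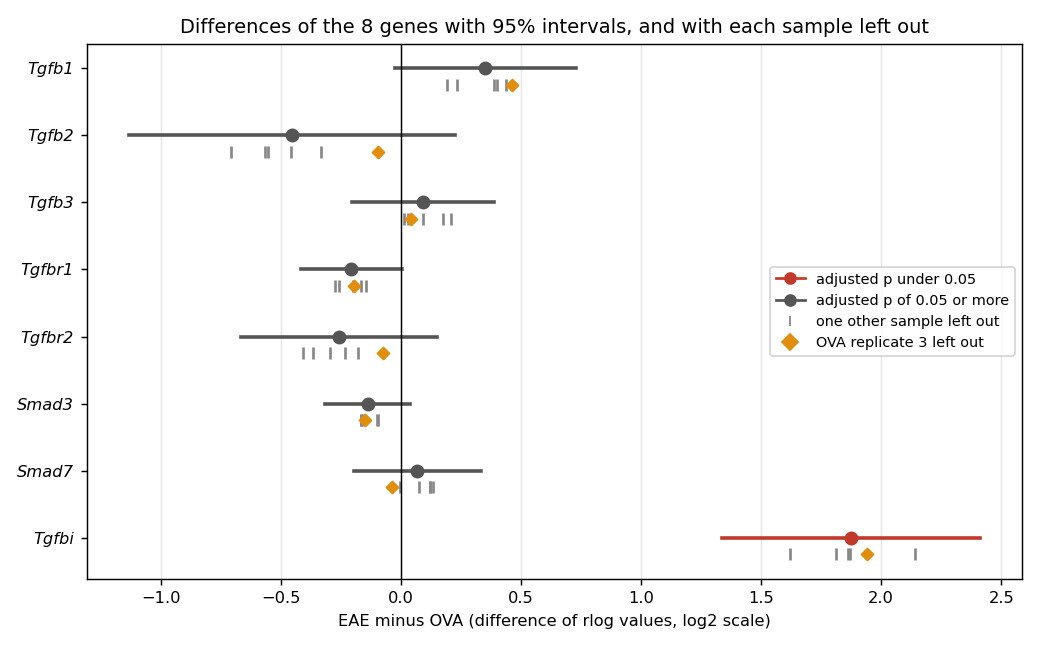
Difference of each gene, EAE minus OVA, on the log2 scale, with its 95% interval from limma; red marks an adjusted p under 0.05 and grey one of 0.05 or more. Marks below each line give the difference with 1 sample left out, the diamond being OVA replicate 3; the interval of Tgfbi runs from 1.34 to 2.41, and the diamonds of Tgfb2 and Tgfbr2 lie closest to 0 among their marks.

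Tgfbi (ENSMUSG00000035493.10, chromosome 13, 56609523 to 56639562), a fasciclin-domain protein that binds integrins and collagen, was first known as a transcript induced by TGF-beta in human lung carcinoma cells. Its rlog values were 13.19, 12.72 and 12.17 in the EAE pools and 10.82, 10.69 and 10.95 in the OVA samples. The lowest EAE pool was 1.22 above the highest OVA sample. The SD was 0.51 in EAE and 0.13 in OVA. Tgfbi rose by 1.87 ± 0.23 (SE; interval 1.34 to 2.41; limma adjusted p = 0.0118). Of all tested genes, 43 had a difference at least as high, Tgfbi included. The limma adjusted p was 0.0638 when EAE replicate 2 was left out, 0.0513 for OVA replicate 1 and 0.0711 for OVA replicate 2, so the call was lost in these 3 fits, and the difference ranged from 1.62 to 2.14 over the 6 fits with 1 sample left out. An exact two-sided permutation test gave p = 0.1, the smallest that 3 samples against 3 allow.

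Per kilobase of exon, Tgfbi had the highest mean level of the 8 genes in EAE, at 10.78, followed by Smad7 at 9.33 and Tgfbr2 at 8.76. In OVA Smad7 stood at 9.26, Tgfbr2 at 9.02, Tgfbi at 8.90 and Tgfbr1 at 8.89. These last 3 OVA levels lay within the spread of Tgfbr2 between samples. Tgfbi minus Tgfb1 within a sample was 2.62 ± 0.32 in EAE and 1.10 ± 0.16 in OVA (SD, n = 3), without overlap.

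Levels of myeloid markers were also higher in EAE. The summed level of the 9 myeloid markers differed by 0.98 and that of the 8 monocyte and macrophage markers by 1.94, with the values given above. Relative to the myeloid level of the same sample, Tgfbi stood at -3.12, -3.39 and -3.95 in EAE and at -4.34, -4.28 and -4.54 in OVA, so the groups still did not overlap. Relative to the monocyte and macrophage level Tgfbi stood at -1.09, -0.98 and -1.34 in EAE and at -0.41, -0.69 and -2.13 in OVA. The groups overlapped, with means of -1.14 and -1.08. OVA replicates 1 and 2 lay above every EAE pool and OVA replicate 3 below them all. The overlap and the OVA mean therefore rest on OVA replicate 3, and the SD was 0.92 in OVA against 0.19 in EAE. In OVA replicate 3 the highest of the 8 markers was Chil3, at 12.20. It stood at 8.50 and 8.69 in OVA replicates 1 and 2. These ratios were formed after the values were seen and have no test. What part infiltrating cells had in the rise was not tested.

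The promoter of Tgfbi is shown because it belongs to the only called member, beside that of Inhba, the called ligand gene of the superfamily described below. Each covers 300 bases, from 250 before to 50 after the RefSeq start of the gene (GRCm38.p6), at chr13:56609336-56609635 for Tgfbi and chr13:16011601-16011900 for Inhba, both on the plus strand. Capitals mark matches on either strand to CAGAC, the Smad-binding element, to GGGCGG, the GC box, or to TATAAA, the TATA box.
Tgfbi: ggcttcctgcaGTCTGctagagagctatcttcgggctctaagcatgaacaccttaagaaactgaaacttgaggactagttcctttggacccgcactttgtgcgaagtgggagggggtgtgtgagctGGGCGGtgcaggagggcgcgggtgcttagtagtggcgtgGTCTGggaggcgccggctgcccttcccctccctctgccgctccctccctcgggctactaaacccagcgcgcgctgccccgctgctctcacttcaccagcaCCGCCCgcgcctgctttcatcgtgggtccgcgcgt
Inhba: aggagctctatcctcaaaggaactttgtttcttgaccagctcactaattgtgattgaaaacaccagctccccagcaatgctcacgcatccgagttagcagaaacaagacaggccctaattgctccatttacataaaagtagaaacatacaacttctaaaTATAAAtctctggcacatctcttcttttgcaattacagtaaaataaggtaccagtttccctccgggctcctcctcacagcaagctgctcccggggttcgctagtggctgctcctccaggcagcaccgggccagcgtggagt
Tgfbi held 2 matches to the Smad-binding element, whose first bases lay at -239 and -85 from the start, both on the minus strand, and 2 GC boxes. Inhba held none of either and 1 match to the TATA box, whose first base lay at -91 from the start. Of 32851 promoters of this length, 49.6% held CAGAC, 35.7% GGGCGG and 13.6% TATAAA. None of the members' windows held the AP-1 element TGANTCA, found in 7.81% of all. RefSeq promoters were given for 6 of the 8 genes, 7 windows in all, and 4 of these windows held CAGAC. Tgfb1, by contrast with Tgfbi, had 6 GC boxes and no CAGAC. At these shares a match to CAGAC does not set Tgfbi apart, and the matches are letters in a window.

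Other genes of the pathway were taken from 7 lists by role, 90 genes of which 86 were tested. Of these, 2 rose, 2 fell and 82 did not pass, where 1.72% of all tested genes rose and 0.666% fell. Their median difference was -0.10. Leaving out OVA replicate 3 gave 5 that rose and 3 that fell. None rose or fell when EAE replicate 2, OVA replicate 1 or OVA replicate 2 was left out, and 1 rose and none fell when EAE replicate 1 was.

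**Figure D3:**
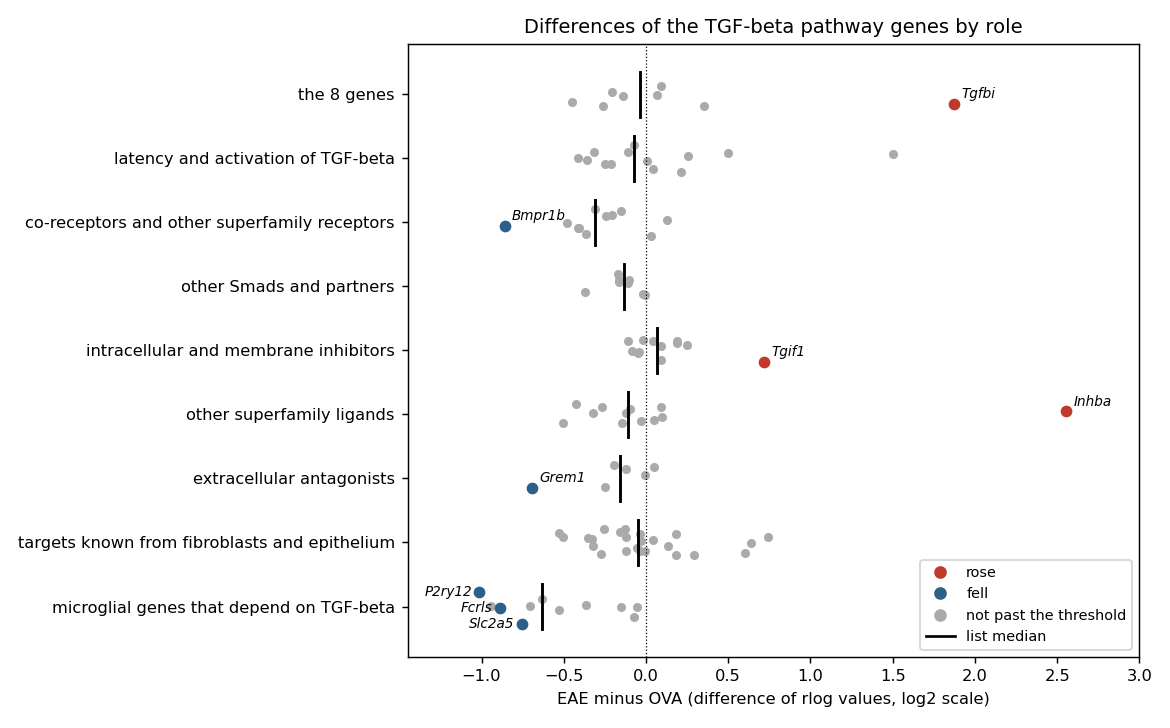
Difference of each tested gene, EAE minus OVA, on the log2 scale, for the 8 genes and for the lists of the pathway; red and blue points rose or fell at a limma adjusted p under 0.05, grey points did not pass, and the bar is the list median. The microglial list lies wholly below 0, with a median of -0.63, while the other medians lie between -0.31 and 0.06.

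Of 13 genes of latency and activation none passed, and the median was -0.07. An unadjusted limma p under 0.05 was reached by 4 of them, and by 16.3% of all tested genes. Thbs1, thrombospondin 1, which frees TGF-beta from its latency peptide, had rlog values of 12.19, 12.21 and 11.65 in EAE and 10.02, 10.05 and 11.49 in OVA. OVA replicate 3 stood 1.44 above the next OVA sample and close to EAE replicate 3. The difference of 1.502 ± 0.382 (SE) did not pass with all samples (limma adjusted p = 0.101), and was 1.99 without OVA replicate 3, where it passed (limma adjusted p = 0.00139), as it did with samples weighted by their mice (0.0389). Furin, the protease that cuts the TGF-beta precursor, differed by 0.50 ± 0.14 (SE; limma adjusted p = 0.13), with 11.85, 11.63 and 11.30 in EAE against 10.98, 11.07 and 11.23 in OVA.

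Of 11 co-receptors and receptors of the superfamily, 9 lay below 0 and 2 above it, where 49.3% of all tested genes lay above 0. The median was -0.31, and 7 of the 11 were highest in OVA replicate 3 among the OVA samples. Only Bmpr1b fell, as did 0.666% of all tested genes. Bmpr1b, a type I receptor for bone morphogenetic proteins, had rlog values of 8.76, 8.45 and 8.72 in EAE and 9.67, 9.50 and 9.33 in OVA. The lowest OVA sample was 0.57 above the highest EAE pool, and the fall was -0.86 ± 0.12 (SE; limma adjusted p = 0.0204). The call was lost when EAE replicate 1 or 2 or OVA replicate 1 or 2 was left out (limma adjusted p of 0.0562 to 0.095). The summed level of 7 astrocyte markers was 15.68 to 15.96 in EAE and 16.50 to 16.82 in OVA, with 5 of the 7 falling, Gfap rising and none at 0, and its part in the fall of Bmpr1b was not tested. All 8 tested genes of the list of other Smads and their partners lay below 0 with a median of -0.14, and none passed. The smallest p values were those of Smad9, a Smad of the BMP branch, at -0.37 ± 0.10 (SE; limma adjusted p = 0.12), and Zfyve9, the anchor that presents Smads to the receptor, at -0.17 ± 0.07 (limma adjusted p = 0.28). Foxh1, Mstn and Fst had a mean rlog value under the minimum of 3 and Gdf1 was listed at 0, so these 4 of the 90 genes were not tested.

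Of 12 inhibitors inside the cell and at its membrane, 1 rose, with a median of 0.06. This was Tgif1, a homeodomain repressor that binds Smad2 and Smad3, with rlog values of 10.05, 10.05 and 9.81 in EAE and 9.25, 9.14 and 9.37 in OVA. The groups were 0.44 apart, and the rise was 0.72 ± 0.10 (SE; limma adjusted p = 0.0189). The fits that lacked EAE replicate 1 or 2 or OVA replicate 1 or 2 gave a limma adjusted p of 0.0562 to 0.104. Of 6 tested extracellular antagonists Grem1, gremlin 1, which traps bone morphogenetic proteins, fell, with a difference of -0.69 ± 0.12 (SE; limma adjusted p = 0.0300). It stood at 6.43, 6.54 and 6.22 in EAE and at 7.001, 7.078 and 7.190 in OVA, and its call held only without OVA replicate 3 (limma adjusted p of 0.0669 to 0.117 in the other 5 fits with a sample left out).

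Among 12 tested ligands of the superfamily other than the TGF-betas, 1 rose and the median was -0.11. Inhba, the beta A chain of activin A, a ligand that signals through Smad2 and Smad3 by its own receptors, had rlog values of 11.55, 10.24 and 9.38 in EAE and 7.80, 7.58 and 8.14 in OVA. All EAE pools lay above all OVA samples, but spread widely, with an SD of 1.09 against 0.28 in OVA. Inhba rose 5.87-fold, by 2.55 ± 0.48 (SE; limma adjusted p = 0.0413), and lost its call when EAE replicate 2 or OVA replicate 1 or 2 was left out (limma adjusted p of 0.113 to 0.161) and in limma without an intensity trend (0.0516). Of 24 targets of TGF-beta known from fibroblasts and epithelium, 8 lay above and 16 below 0 with a median of -0.05. None passed by limma, and 3 had an unadjusted p under 0.05, which 16.3% of all tested genes reached. The smallest p values were those of Zeb1, a repressor of epithelial genes, and Junb, a subunit of AP-1. Zeb1 had rlog values of 10.45, 10.54 and 10.56 in EAE and 11.24, 10.87 and 10.95 in OVA, with a difference of -0.51 ± 0.11 (SE; limma adjusted p = 0.0579). Junb had rlog values of 12.86, 12.50 and 12.29 in EAE and 11.95, 11.60 and 11.89 in OVA, with a difference of 0.74 ± 0.16 (SE; limma adjusted p = 0.0597). The groups did not overlap for either gene, and both passed without OVA replicate 3 (limma adjusted p = 0.0323 for Zeb1 and 0.0376 for Junb). In Tgfbi and Inhba alike, EAE replicate 1 was the highest pool and EAE replicate 3 the lowest, an order also seen in the summed monocyte and macrophage level. Tgfb1, Tgfb3, Furin and Junb, which did not pass, had the same order, so it is not particular to Tgfbi and Inhba.

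In the list of microglial genes that need TGF-beta for their expression, every one of 11 differences was negative (median -0.63). Of these genes 3 fell, beside 0.666% of all genes. P2ry12, the ADP receptor of resting microglia, had rlog values of 9.94, 10.14 and 10.54 in EAE and 11.47, 10.94 and 11.26 in OVA. All EAE pools lay below all OVA samples, and the difference was -1.02 ± 0.18 (SE; limma adjusted p = 0.0344). Fcrls, an Fc receptor-like scavenger molecule, differed by -0.89 ± 0.14 and Slc2a5, a fructose transporter, by -0.75 ± 0.14 (SE; limma adjusted p = 0.0256 and 0.0433). The groups did not overlap for 8 of the 11, where 22.8% of all genes had such groups. None of these 3 calls held when replicate 1 or 2 of either group was left out, and the count was 5 when EAE replicate 3 was. The 9 markers that microglia share with other myeloid cells had a median difference of 0.83. Of these 5 rose, from Aif1 at 0.66 to Ctss at 1.49, and the smallest difference was that of the receptor Csf1r at 0.03 ± 0.12 (SE; limma adjusted p = 0.93). Their part in the fall of the microglial genes was not tested. These genes were chosen with their direction in these data known, so the list is no independent evidence of it.

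**Figure D4:**
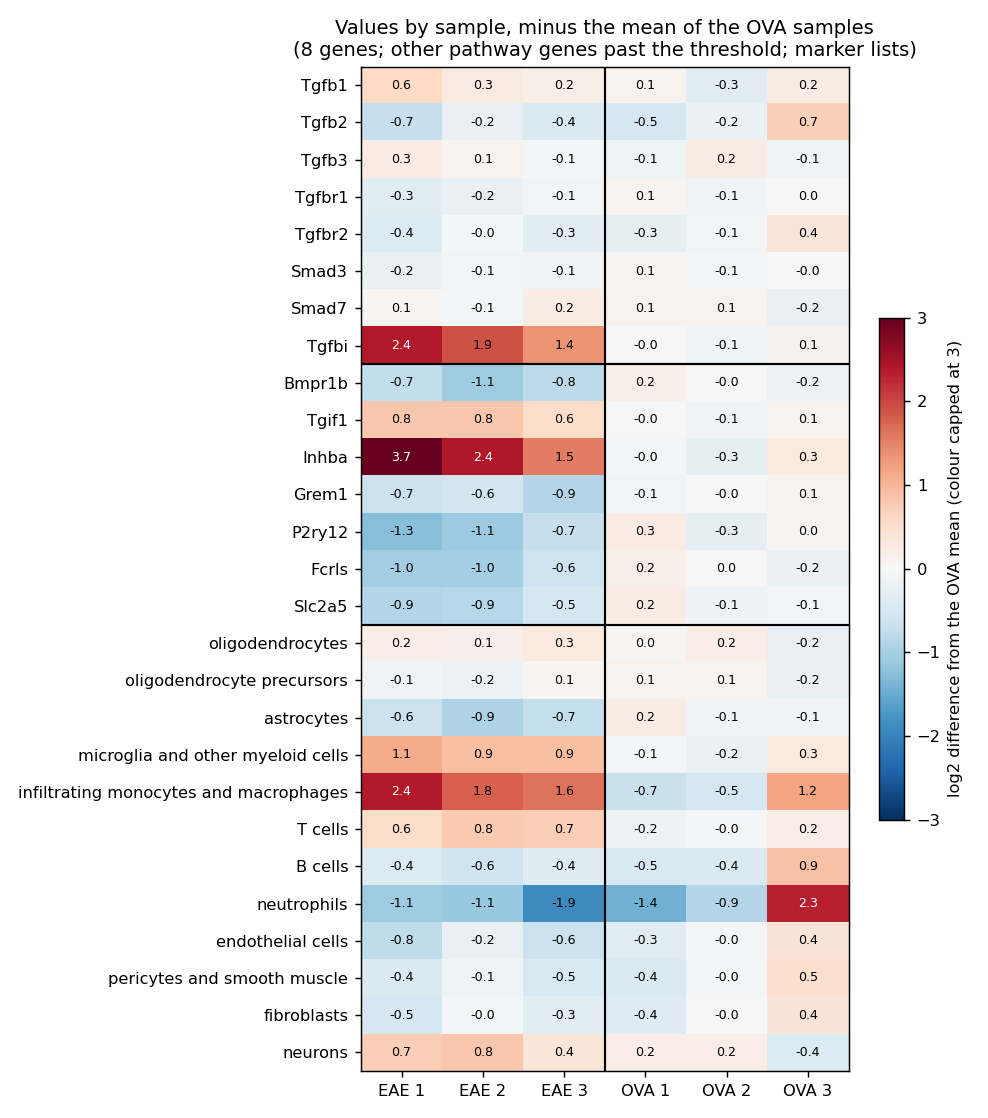
Values in each sample minus the mean of the 3 OVA samples, on the log2 scale (red above, blue below, colour capped at 3), for the 8 genes, for the other pathway genes past the threshold and for the summed levels of the marker lists. Tgfbi and Inhba are high in the 3 EAE columns, and Tgfb2 and Tgfbr2 are highest in the column of OVA replicate 3, as are the endothelial markers.

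The genes with the most similar profiles were found by the root mean square difference of centred rlog values over the 6 samples, among 15022 other tested genes. Nearest to Tgfbi were Csf2rb2, a receptor chain for interleukin-3 (0.0435), and Ifi30, a lysosomal thiol reductase of antigen-presenting cells (0.0952), against a spread of 0.986 of Tgfbi about its own mean. Csf2rb2 stood at 11.08, 10.57 and 10.12 in EAE and at 8.74, 8.51 and 8.85 in OVA. Nearest to Tgfb2 were Slc22a8, an organic anion transporter of brain vessels and choroid plexus (0.0294), and Clic5, a chloride channel protein (0.0497), against a spread of 0.451. Slc22a8 was likewise highest in OVA replicate 3, at 11.77, where the other samples ranged from 10.30 to 10.88.

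Nearest to Tgfbr2 were Pear1, a receptor of platelets and endothelium (0.0247), and Elk3, an ETS factor of endothelial cells (0.0341), against a spread of 0.259. For Tgfb1 they were Slc25a37, a mitochondrial iron importer (0.0610), and Cgas, the cytosolic DNA sensor (0.0624), against a spread of 0.270. Tgfb3 was closest to Zcwpw2 and Snrnp35, Tgfbr1 to Zfp810 and Rbm12, Smad3 to Ing5 and Pnpla6, and Smad7 to Apba1 and Neo1, at 0.0182 to 0.0395. With 6 samples and so many genes such closeness is a description of these libraries, and for members with a spread of 0.0918 to 0.155 it covers small differences only.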

How the data were processed

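RNA of O4-captured mouse brain cells was measured in 3 EAE pools and 3 OVA samples. Libraries were made with a stranded mRNA kit, per the labels' protocols. GRCm38 is the build in the submitters' processing notes, which also list STAR 2.6.1c, Subread 1.6.1, DESeq2 1.24.0, cutadapt 1.18 and bcl2fastq 2.17 with no role or order. The deposited values are log2 values, by the table's name the regularised logarithm of scaled counts made by the authors. They hold no counts, so depth is unknown and no count test or detection floor was possible. Whether the rlog was blind to the groups is not stated. P-values measure the spread between these samples, most of them pools.

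Identifiers were matched to GENCODE M21 (GRCm38) without their version, and 55117 of 55298 (99.7%) had a symbol. Where a symbol repeats, the identifier with the highest mean was used. Genes with a mean rlog value of at least 3 were fitted with limma 3.58.1 (R 4.3.3, empirical Bayes with an intensity trend), EAE minus OVA. Benjamini-Hochberg adjustment was over all 18161 genes. Folds are 2 to the power of the difference. Members and lists were chosen with earlier results of these data known, so lists are described by counts and medians without a set test.

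Named were the 8 members, for each pathway list the genes past the threshold (up to 3 per direction) or else the 2 with the smallest p, and the 2 nearest profiles of each member without predicted gene models. Ttll5, Gm29491 and the marker genes stand beside results they touch and were chosen after their values were seen. The fit was tested on simulated data. A gene of the lists is not reported here, and the counts of its list leave it out.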

Additional observations from a re-analysis of the deposited data

How the results depend on the processing

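The 14 alternatives were no filter, a mean rlog value of at least 5, no intensity trend, robust empirical Bayes, array quality weights, weights by number of mice, median centring, quantile normalization and each of the 6 samples left out. Tgfbi kept its direction in all of them (1.62 to 2.14) and passed in 11. No member was lower past the threshold in any. Array quality weights, whose estimation stopped before it converged and which weighted OVA replicate 2 most, 39.9 times the lowest weight, moved most counts. There Tgfb1 passed at 0.65 (adjusted p = 0.0038; 0.0038 to 0.75 over its alternatives), 2 members were higher, and Tgfb3 and Smad7 turned to -0.109 and -0.0488. They also gave 2858 higher and 2233 lower genes over the whole table, 15 higher and 24 lower other pathway genes and 8 lower microglial genes. Weights by number of mice gave 4 higher pathway genes, and limma without an intensity trend 1, beside 2 with all samples and equal weights. With 1 sample left out, Smad7 ranged from -0.0379 (without OVA replicate 3) to 0.134, also turning without EAE replicate 3 (-0.0035), and Tgfbi from 1.62 to 2.14. The counts ranged from 0 to 1 higher members, 24 to 850 higher and 1 to 346 lower genes over the whole table, 0 to 5 higher and 0 to 3 lower pathway genes and 0 to 5 lower microglial genes. The cause of these shifts was not tested. No scaling moved the median of all genes by more than 0.03, from -0.0024 to -0.0255. No paired analysis was possible because the replicate numbers follow the order of the samples and pair nothing. Unknown depth and the shrinkage of the rlog limit what can be said of weakly expressed genes.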
